A study of Homo sapiens with 60 samples.

Results

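Sphingolipid synthesis in HepG2 liver cells is described here through 10 genes, which were chosen by 1 measured value: an earlier reading of the same data had found SPTLC3 about 36 times lower with the high dose of the herb extract Aucklandiae Radix. They are SPTLC1, SPTLC2 and SPTLC3, which encode the catalytic subunits of serine palmitoyltransferase, ORMDL1, ORMDL2 and ORMDL3, which encode its membrane regulators, and CERS2, DEGS1, UGCG and SGMS1, which encode enzymes that make ceramide or use it. They were matched by symbol to 10 of the 60675 gene IDs in the count table, and all 10 were among the 16982 genes that passed the filter on low counts. The lowest count of any of the 10 in any library was 35, for SPTLC3 in the high dose of Aucklandiae Radix. Because SPTLC3 in the high dose of Aucklandiae Radix set the choice, every value of the 10 genes in that group is given below as a description with no test.

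Serine palmitoyltransferase joins serine to a fatty acyl-CoA and is the first, rate-limiting step of sphingolipid synthesis. Its SPTLC1 subunit pairs with SPTLC2, which favours palmitoyl-CoA, or with SPTLC3, which widens the range of acyl chains that are accepted and differs widely in level between tissues. ORMDL proteins hold the enzyme back when ceramide is abundant. The product is reduced and acylated by ceramide synthases such as CERS2, which prefers very long acyl chains and is the main form in liver, and DEGS1 then introduces the double bond that turns dihydroceramide into ceramide. UGCG adds glucose to ceramide and SGMS1 adds phosphocholine to it, which leads to glycosphingolipids and to sphingomyelin.

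RNA was sequenced from HepG2, a single established hepatocellular carcinoma line, after 24 h with ethanol extracts of herbs or herbal formulas at a high, a medium and a low dose, or with vehicle. Polygalae Radix was given at 250, 50 and 10 ug/mL and Aucklandiae Radix at 280, 56 and 11.2 ug/mL. The remaining 2 herbs, Saposhnikoviae Radix and Menthae Herba, and the 4 formulas Okbyeongpung-san, Soyo-san, Guibi-tang and Saengmaek-san were given at 500, 100 and 20 ug/mL. By the design text the high dose was lowered to the concentration of 20% inhibition where that lay under 500 ug/mL, so the high doses of Polygalae Radix and Aucklandiae Radix were inhibitory by choice. The labels give vehicle as 0.1% DMSO and the design text gives it as 2% DMSO. Each dose had 2 libraries for Soyo-san, Aucklandiae Radix and Polygalae Radix and 1 for Okbyeongpung-san. Vehicle and each dose of the other 4 extracts had 3, which makes 60 libraries in 25 groups. Nothing in the labels ties a replicate to its own culture, so the p-values below cover no more than the spread among these libraries, which may be technical. The sample codes put 2 extracts in each of the sets numbered 11 to 14, and vehicle has a code of its own, so a difference between set and treatment cannot be told apart in any comparison with vehicle. For that reason the main comparison was each high or medium dose against the low dose of the same extract.

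Libraries held between 17.5 and 38.9 M expected counts, with a median of 23.7 M. Levels are given as CPM, counts scaled to a common library size. For the identity and marker lists in this paragraph the scaling is by library totals alone, unlike the CPM below. All 12 listed hepatocyte and HepG2 identity genes, such as ALB and APOA1, averaged above 1 CPM, while of the 21 listed markers of other cells 18 stayed under 4 CPM in every library, with HBB and DCN at 0. The exceptions were CD68 (12.2 to 54.7 CPM), which made up most of the blood list (15.4 to 58.7 CPM summed), PDGFRB of the stroma list (4.89 to 17.1 CPM) and PECAM1 of the endothelial list (1.80 to 6.36 CPM). The summed level of the identity list was 48894 to 50537 CPM in vehicle. It was 20817 to 24900 CPM in the high dose of Polygalae Radix against 51398 to 53284 in its low dose, 25433 to 26373 against 50479 to 51461 for Aucklandiae Radix, 27832 to 30624 against 53533 to 55780 for Menthae Herba, and 40324 to 41398 against 52447 to 53813 for Guibi-tang. It was also 47882 to 49629 against 54535 to 54913 CPM for Soyo-san. SPTLC3 had its most negative high-against-low differences with the first 4 of these extracts, and the part of this shift in the results below was not tested. In bulk RNA, fewer cells of a kind and less RNA per cell cannot be told apart.

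SPTLC3 (ENSG00000172296) lies on the plus strand of chromosome 20 from 13008979 to 13169103 in GRCh38. In vehicle its level per length was 7.11 ± 0.237 CPM per kb of merged exon (SD, n = 3), close to SPTLC1 at 6.80 ± 0.576 and above SPTLC2 at 4.22 ± 0.154 CPM per kb on the same scale. RNA of both alternative partners of SPTLC1 was present in vehicle-treated HepG2. The 3 vehicle libraries held 62.2, 61.3 and 58.3 CPM of SPTLC3.

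At 280 ug/mL of Aucklandiae Radix the 2 libraries held 1.46 and 1.86 CPM, against 62.5 and 59.1 CPM in its low dose and 52.8 and 55.0 CPM in its medium dose. The fitted level was 36.5 times lower than in the low dose (log2 difference -5.19, in a comparison where 69.4% of all genes passed the test), and 36.4 times lower than in vehicle, with 35 counts in the lowest library. These values chose the gene and carry no test, and among 16982 log2 differences ordered from the most negative SPTLC3 stood at place 34. At the medium dose of 56 ug/mL the log2 difference from 11.2 ug/mL was -0.17 (95% interval -0.29 to -0.06), which did not pass the test (edgeR quasi-likelihood test, adjusted p = 0.0666).

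In 3 other high doses, which the choice of genes did not use, SPTLC3 passed the test as lower than in the low dose. For Polygalae Radix the libraries held 18.1 and 21.2 CPM at 250 ug/mL and 59.5 and 59.8 CPM at 10 ug/mL, and SPTLC3 fell 3.05-fold (log2 difference -1.61, SE 0.061, edgeR adjusted p = 1.01e-26). For Guibi-tang the libraries held 40.9, 45.1 and 42.8 CPM at 500 ug/mL and 65.0, 65.1 and 68.8 CPM at 20 ug/mL, and SPTLC3 fell 1.55-fold (log2 difference -0.63, SE 0.046, edgeR adjusted p = 1.86e-15). High-dose and low-dose libraries did not overlap in either extract. How many of all genes tested did not overlap was not counted, here or below. For Menthae Herba the libraries held 55.3, 57.7 and 58.0 CPM at the high dose and 66.2, 73.9 and 73.8 CPM at the low dose, again without overlap, and SPTLC3 fell 1.25-fold (log2 difference -0.32, edgeR adjusted p = 1.66e-07). Among the 16982 log2 differences of each comparison, ordered from the most negative, SPTLC3 stood at place 883 for Polygalae Radix, 1050 for Guibi-tang and 2317 for Menthae Herba.

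**Figure D1:**
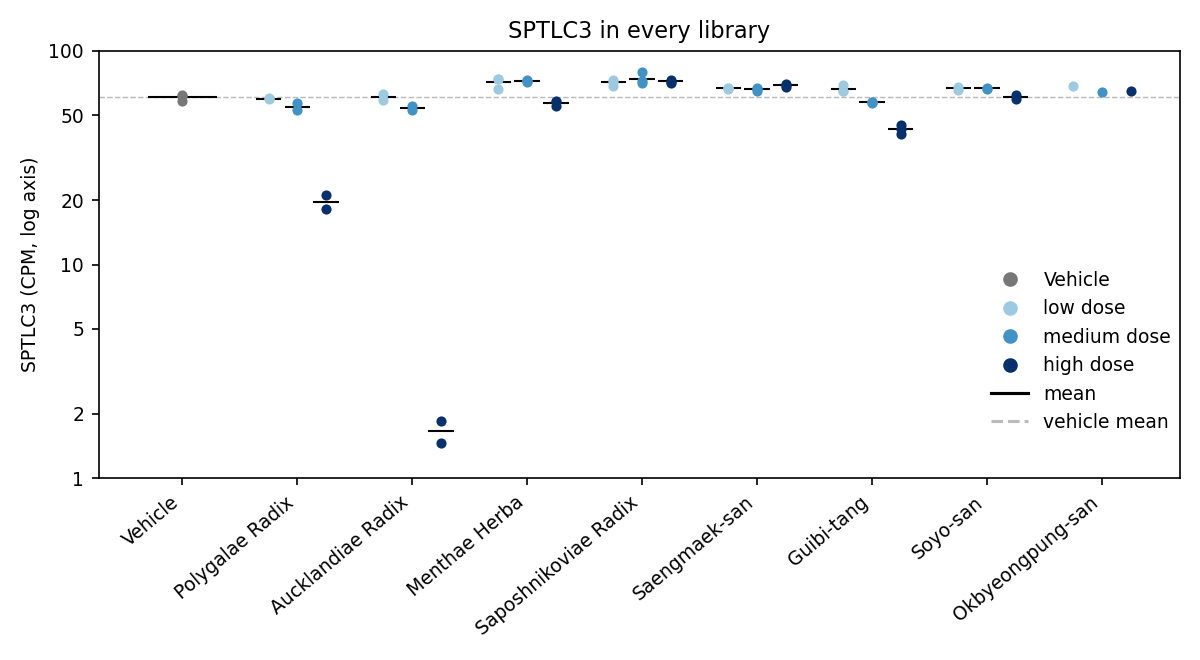
SPTLC3 in CPM on a log axis, with 1 point per library for vehicle and for the low, medium and high dose of each extract. The 2 libraries of the Aucklandiae Radix high dose lie at 1.46 and 1.86 CPM, those of the Polygalae Radix high dose at 18.1 and 21.2 CPM, and those of the Guibi-tang high dose between 40.9 and 45.1 CPM, while every other library lies above 50 CPM.

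Guibi-tang was the only extract whose medium dose also passed the test for SPTLC3 (56.9 to 57.8 CPM at 100 ug/mL against 65.0 to 68.8 CPM at 20 ug/mL, log2 difference -0.21, edgeR adjusted p = 0.00355). Its 3 doses lay in order without overlap. The same order without overlap held for Polygalae Radix and Aucklandiae Radix, which had 2 libraries per dose and whose medium doses did not pass. The medium dose of Polygalae Radix, at 52.6 and 56.9 CPM, differed from its low dose by -0.13 (edgeR adjusted p = 0.164). Soyo-san held 59.7 and 61.8 CPM at the high dose and 65.5 and 67.9 CPM at the low dose, without overlap. Its log2 difference of -0.13 did not pass (edgeR adjusted p = 0.23). The 2 remaining tested extracts gave high-against-low differences near 0, with intervals of -0.07 to 0.10 for Saposhnikoviae Radix and -0.05 to 0.13 for Saengmaek-san.

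Ordered by mean CPM, the 22 groups with 2 or 3 libraries fell into blocks in which each group overlapped the next in order. The top block ran from the Saposhnikoviae Radix medium dose (74.1 ± 4.76, SD, n = 3) to the Saengmaek-san high dose (68.8 ± 0.934, n = 3) and held all 3 doses of Saposhnikoviae Radix and the low and medium doses of Menthae Herba. Below it by mean came the low and medium doses of Saengmaek-san and Soyo-san with the Guibi-tang low dose (66.0 to 66.7). These 2 blocks were not separate, since the Guibi-tang low dose reached 68.8 CPM and the Saengmaek-san high dose started at 67.8 CPM. Next came vehicle (60.6 ± 2.02, n = 3) with the low doses of Aucklandiae Radix and Polygalae Radix and the Soyo-san high dose (59.7 to 60.8). The Guibi-tang medium, Menthae Herba high, Polygalae Radix medium and Aucklandiae Radix medium doses (53.9 to 57.4) followed. The last 3 groups, the high doses of Guibi-tang (42.9 ± 2.10), Polygalae Radix (19.6 ± 2.21) and Aucklandiae Radix (1.66 ± 0.283), overlapped neither each other nor any other group. Between the highest and the lowest group mean the ratio was 44.6 for SPTLC3, whereas for the other 9 genes it ran from 1.44 (SPTLC2) to 5.32 (UGCG).

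In 2 sets the high-against-low change of SPTLC3 could be compared between extracts of the same set at equal doses. The change with Menthae Herba was lower than that with Saposhnikoviae Radix by a log2 difference of -0.34 (SE 0.063, edgeR adjusted p = 0.000114, where 10.6% of all genes tested passed). The change with Guibi-tang was lower than that with Saengmaek-san by -0.67 (SE 0.064, edgeR adjusted p = 2.3e-11, where 19.6% of all genes tested passed). Aucklandiae Radix and Polygalae Radix could be compared only between medium and low doses, which differ (56 and 50, and 11.2 and 10 ug/mL), and there SPTLC3 differed by -0.05 (edgeR adjusted p = 0.802).

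Of the 10 genes, 10 passed the test between the high and low dose of Polygalae Radix, 6 higher and 4 lower, where 64.1% of all genes tested passed (31.1% higher and 33% lower). The median log2 difference of the 10 genes was 0.44, against -0.01 over all genes. For Guibi-tang 6 of 10 passed, 3 higher and 3 lower, where 34.3% of all genes passed (16.8% higher and 17.5% lower), and the medians were 0.09 and -0.00. For Menthae Herba 6 of 10 passed, 3 higher and 3 lower, where 23.3% of all genes passed (10.8% higher and 12.5% lower), and the medians were -0.09 and 0.00. Soyo-san had 2 of 10, both higher, where 3.95% of all genes passed (2.13% higher and 1.83% lower). Scaled by library totals instead, the share of called genes that were higher went from 48.5% to 59.7% for Polygalae Radix, from 49.1% to 71.0% for Guibi-tang and from 46.4% to 60.1% for Menthae Herba. With that scaling all 10 calls for Polygalae Radix and all 6 for Menthae Herba held, ORMDL3 no longer passed with Guibi-tang or Soyo-san, and SPTLC2 (0.17) and ORMDL2 (0.27) passed with Guibi-tang. None of the 10 passed for Saposhnikoviae Radix (0.83% of all genes) or Saengmaek-san (0.436%). Between medium and low doses 1 of 10 passed for Polygalae Radix (8.41% of all genes), Aucklandiae Radix (4.35%) and Guibi-tang (3.6%) each, and none for Menthae Herba (0.118%), Saposhnikoviae Radix (0.0118%), Saengmaek-san (0%) or Soyo-san (0.00589%). In these 6 comparisons with no edgeR call DESeq2 called 0 of the 10 as well, and an unadjusted edgeR p under 0.05 was reached by 1 gene for the medium dose of Saposhnikoviae Radix (SGMS1, 0.16) and by 0 in the other 5. Leaving out single libraries gave counts of 0 to 3 for the medium dose of Polygalae Radix (0 without medium-dose or low-dose replicate 2, 3 without medium-dose replicate 3), 0 for that of Aucklandiae Radix whichever library was left out, and 0 or 1 for Soyo-san, with 1 only without high-dose replicate 2.

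**Figure D2:**
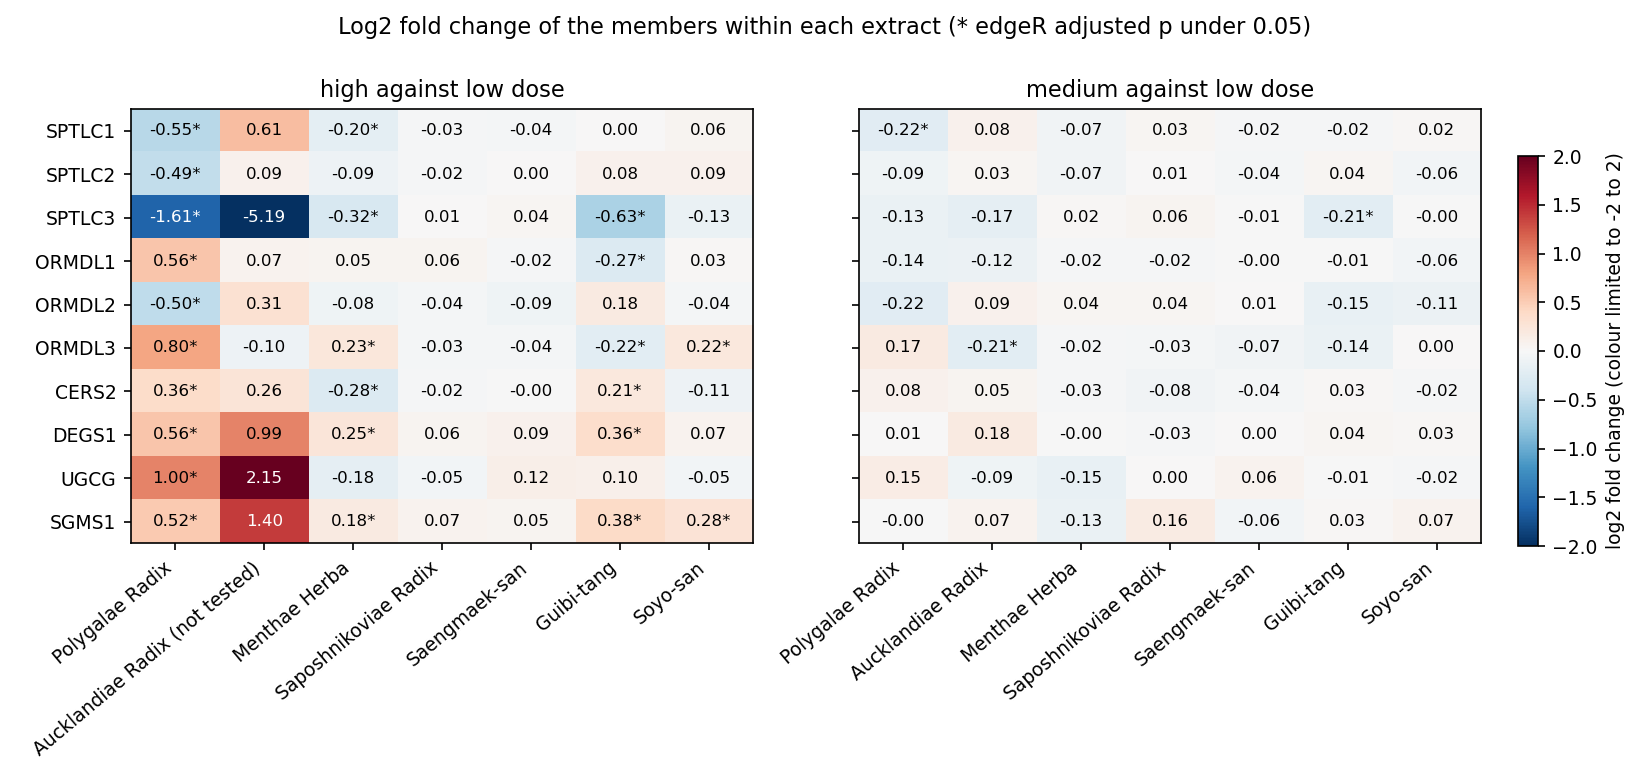
Log2 fold change of each of the 10 genes (rows) between the high and low dose (left) and the medium and low dose (right) of 7 extracts (columns), coloured from blue (lower) to red (higher), with an asterisk where the edgeR adjusted p was under 0.05. SPTLC3 is the most negative cell of the Polygalae Radix, Guibi-tang and Menthae Herba high-dose columns, the Aucklandiae Radix high-dose column was not tested, and only 3 cells of the medium-dose panel carry an asterisk.

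SPTLC1 (chromosome 9, 92000087 to 92115384, minus strand) and SPTLC2 (chromosome 14, 77505997 to 77616773, minus strand) moved less than SPTLC3 in each high dose described here. At the medium dose of Polygalae Radix the difference of SPTLC1 was larger than that of SPTLC3. With the high dose of Polygalae Radix SPTLC1 was at 32.9 and 36.1 CPM against 52.4 and 48.7 CPM in the low dose and fell by 0.55 on the log2 scale (SE 0.059, edgeR adjusted p = 4.13e-11). SPTLC2 was at 28.1 and 33.1 against 44.2 and 41.9 CPM and fell by 0.49 (SE 0.063, edgeR adjusted p = 3.38e-09). The RNA of all 3 catalytic subunits was thus lower in this group, and neither SPTLC1 nor SPTLC2 overlapped between the doses, with 2 libraries per dose. Protein and enzyme activity were not measured in the data used here. SPTLC1 also passed with the high dose of Menthae Herba (43.2, 45.8 and 42.3 against 52.7, 47.8 and 50.0 CPM, log2 difference -0.20, edgeR adjusted p = 0.00144), while SPTLC2 did not (-0.09). With Guibi-tang, whose SPTLC3 fell 1.55-fold, the differences of SPTLC1 and SPTLC2 were 0.00 and 0.08 and neither passed. In the high dose of Aucklandiae Radix SPTLC1 was at 72.4 and 73.2 CPM against 47.7 and 47.3 in the low dose, a log2 difference of 0.61 opposite in sign to that of SPTLC3, and SPTLC2 was at 44.5 and 43.5 against 43.5 and 39.2 CPM, a difference of 0.09.

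The ratio of SPTLC3 to SPTLC2 counts within a library does not depend on the scaling between libraries. It shows how the RNA of the 2 partners shifted against each other. It averaged 1.57 in vehicle (1.54 to 1.62). In high-dose libraries it averaged 0.642 for Polygalae Radix against 1.39 in its low dose, 0.990 for Guibi-tang against 1.62, and 1.46 for Menthae Herba against 1.70. For Guibi-tang the medium dose lay between them at 1.37. For Soyo-san the ratio averaged 1.40 in the high dose (1.40 to 1.41), 1.70 in the medium and 1.63 in the low dose (1.63 to 1.64). In the high dose of Aucklandiae Radix it was 0.0378, against 1.27 in the medium and 1.47 in the low dose. Across the 3 doses of Saposhnikoviae Radix and the 3 of Saengmaek-san the group means stayed between 1.60 and 1.73.

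SPTLC1 was the only one of the 10 to pass between the medium and low dose of Polygalae Radix (log2 difference -0.22, edgeR adjusted p = 0.0116). That call was lost without medium-dose replicate 2 (-0.18) or low-dose replicate 2 (-0.17), when the trend with GC content was removed (-0.14) and when only the compared groups were fitted (-0.22). The medium-against-low change of SPTLC1 differed between Aucklandiae Radix and Polygalae Radix by 0.30 (edgeR adjusted p = 0.016, where 7.73% of all genes passed), a call that was also lost without Polygalae Radix medium-dose or low-dose replicate 2 or without Aucklandiae Radix medium-dose or low-dose replicate 3, with no filter on low counts and when only the compared groups were fitted (0.20 to 0.36 over all settings).

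The 3 ORMDL genes did not move as a group. At 250 ug/mL of Polygalae Radix ORMDL3 (chromosome 17, 39921041 to 39927601, minus strand) was at 173 and 151 CPM against 91.2 and 95.1 CPM in the low dose and rose by 0.80 on the log2 scale (SE 0.061, edgeR adjusted p = 8.29e-16). ORMDL1 (chromosome 2, 189770323 to 189784371, minus strand) was at 53.1 and 67.3 against 41.3 and 40.5 CPM and rose by 0.56 (SE 0.079, edgeR adjusted p = 4.31e-08). ORMDL2 (chromosome 12, 55817919 to 55821879, plus strand) went the other way, from 13.6 and 13.8 CPM to 9.48 and 9.90 CPM, and fell by 0.50 (SE 0.11, edgeR adjusted p = 5.7e-05). High-dose and low-dose libraries did not overlap for any of the 3, but with 2 libraries per dose a lack of overlap says little by itself.

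In the other extracts the ORMDL changes were smaller and of mixed sign. ORMDL3 rose with the high dose of Menthae Herba (124, 111 and 122 against 101, 101 and 102 CPM, log2 difference 0.23, edgeR adjusted p = 0.000371) and fell with that of Guibi-tang (86.3, 80.5 and 84.6 against 96.2, 93.3 and 103 CPM, log2 difference -0.22, edgeR adjusted p = 0.00063), although the Guibi-tang call was lost when libraries were scaled by their totals (-0.13). ORMDL1 fell with Guibi-tang (36.6, 32.4 and 35.7 against 41.6, 45.3 and 39.3 CPM, log2 difference -0.27, edgeR adjusted p = 0.00168). With Soyo-san ORMDL3 was at 111 and 116 against 96.1 and 99.5 CPM (log2 difference 0.22, edgeR adjusted p = 0.0312), a call that was lost when any 1 of its 4 libraries was left out (0.18 to 0.25). The high dose of Aucklandiae Radix gave log2 differences of 0.07 for ORMDL1 (-0.041 with the GC trend removed), 0.31 for ORMDL2 and -0.10 for ORMDL3 (0.032 when scaled by library totals), with 42.6 to 44.1, 15.2 to 16.5 and 87.7 to 91.7 CPM in its libraries. At the medium dose of that extract ORMDL3 passed with -0.21 (edgeR adjusted p = 0.0466) but did not pass when any 1 of the 4 libraries was left out (-0.22 to -0.19) or when libraries were scaled by their totals (-0.16). Its medium-against-low change differed from that with Polygalae Radix by -0.38 (edgeR adjusted p = 0.00372), or by -0.27 and without passing when Polygalae Radix medium-dose replicate 2 was left out, and by -0.39 without passing when only the compared groups were fitted. ORMDL1 overlaps PMS1, and ORMDL2 overlaps DNAJC14, in the annotation, and the strand setting of the counting is not given in the sources used here, so reads of these pairs may be mixed.

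CERS2 (chromosome 1, 150960583 to 150975004, minus strand) had the highest level per length of the 10 in vehicle, 54.4 ± 1.40 CPM per kb (SD, n = 3), followed by ORMDL3 at 28.9 ± 1.86 CPM per kb. With the high dose of Polygalae Radix CERS2 was at 347 and 320 CPM against 261 and 257 in the low dose and rose by 0.36 on the log2 scale (SE 0.045, edgeR adjusted p = 1.76e-09). With Guibi-tang it was at 294, 269 and 271 against 245, 241 and 236 CPM and rose by 0.21 (edgeR adjusted p = 1.22e-05). Menthae Herba was opposite, with 208, 195 and 196 against 251, 243 and 235 CPM, and CERS2 fell by 0.28 (edgeR adjusted p = 7.2e-08). Tested within sets, the change with Menthae Herba was lower than that with Saposhnikoviae Radix by -0.26 (edgeR adjusted p = 0.000331) and the change with Guibi-tang was higher than that with Saengmaek-san by 0.21 (edgeR adjusted p = 0.00256). CERS2 overlaps SETDB1 in the annotation, with the same limit on strand.

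DEGS1 (chromosome 1, 224175756 to 224193441, plus strand) was higher in each of the 3 high doses where SPTLC3 passed the test as lower. Its libraries were at 37.8 and 38.3 against 27.6 and 24.6 CPM for Polygalae Radix (log2 difference 0.56, edgeR adjusted p = 2.82e-10). They were at 36.6, 34.1 and 32.9 against 26.7, 27.6 and 26.8 CPM for Guibi-tang (0.36, edgeR adjusted p = 5.33e-07), and at 32.1, 33.8 and 30.1 against 26.2, 25.9 and 28.8 CPM for Menthae Herba (0.25, edgeR adjusted p = 0.000408). The doses did not overlap in any of the 3 extracts. The rise with Guibi-tang exceeded that with Saengmaek-san by 0.27 (edgeR adjusted p = 0.00931). In the high dose of Aucklandiae Radix DEGS1 was at 52.1 and 54.0 against 27.7 and 25.8 CPM, a log2 difference of 0.99.

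UGCG and SGMS1 had, with DEGS1, the largest positive differences of the 10 in the high dose of Aucklandiae Radix, and the bases before their starts are printed here because these 3 genes were higher together there and with Polygalae Radix. The stretches are the parts of the 250 bases before the RefSeq start (GRCh38.p14) that lie outside the exons of the same gene in GENCODE 29: UGCG at chr9:111896564-111896765 on the plus strand, SGMS1 at chr10:50623984-50624206 on the minus strand and DEGS1 at chr1:224182990-224183170 on the plus strand. The UGCG stretch ends at the base before the annotated gene, and those of SGMS1 and DEGS1 lie within the annotated gene, before a start that lies inside it. Capitals mark letters that match a searched motif.
UGCG: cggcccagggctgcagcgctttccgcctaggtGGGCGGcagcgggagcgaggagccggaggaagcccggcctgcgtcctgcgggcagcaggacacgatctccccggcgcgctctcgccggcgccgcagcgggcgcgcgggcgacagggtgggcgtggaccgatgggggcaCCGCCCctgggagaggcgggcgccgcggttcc
SGMS1: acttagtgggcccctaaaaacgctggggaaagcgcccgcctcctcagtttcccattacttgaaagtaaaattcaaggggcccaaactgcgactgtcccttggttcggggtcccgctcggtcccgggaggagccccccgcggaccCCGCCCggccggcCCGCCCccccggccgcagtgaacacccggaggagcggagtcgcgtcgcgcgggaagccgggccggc
DEGS1: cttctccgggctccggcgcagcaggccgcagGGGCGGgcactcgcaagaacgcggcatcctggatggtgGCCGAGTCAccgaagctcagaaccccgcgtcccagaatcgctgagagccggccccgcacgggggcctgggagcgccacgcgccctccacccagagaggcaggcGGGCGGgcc
Each stretch holds 2 copies of the GC box GGGCGG, counted on both strands. At least 1 copy over the same stretch is held by 35.4%, 39.3% and 31.5% of all 35116 promoter windows in the RefSeq table. The DEGS1 stretch also holds 1 match to TGACNNNGC, the core of the antioxidant response element, which 7.27% of windows hold. No match to GAANNTTC (heat shock element core), TGANTCA (AP-1), TGACGTCA (cyclic AMP response element), CACGTG (E-box), CCAAT or TATAAA was found in these letters, and no motif overlapped another. A match is a description of letters and not of a bound site. The table held windows for 8 of the 10 genes. It held 2 for DEGS1, of which the more upstream is printed.

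UGCG (chromosome 9, 111896766 to 111935369, plus strand) varied most after SPTLC3. In the high dose of Aucklandiae Radix it was at 68.3 and 56.5 CPM against 14.3 and 13.9 CPM in the low dose, a log2 difference of 2.15, and at the medium dose it was at 13.0 and 13.5 CPM, a difference of -0.09 that did not pass. With the high dose of Polygalae Radix it was at 26.2 and 31.6 against 15.4 and 13.8 CPM and rose by 1.00 (95% interval 0.79 to 1.20, edgeR adjusted p = 3.92e-12). It did not pass with Guibi-tang (15.8, 16.0 and 16.0 against 15.1, 15.6 and 14.0 CPM, 0.10, edgeR adjusted p = 0.414) or with Menthae Herba (15.3, 12.3 and 11.1 against 13.8, 15.3 and 15.1 CPM, -0.18, edgeR adjusted p = 0.151), where the doses overlapped.

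SGMS1 (chromosome 10, 50305586 to 50625163, minus strand) was at 37.8 and 33.5 CPM in the high dose of Aucklandiae Radix against 13.0 and 14.0 CPM in the low dose, a log2 difference of 1.40. With Polygalae Radix it was at 19.3 and 19.0 against 14.1 and 12.8 CPM and rose by 0.52 (edgeR adjusted p = 1.61e-08). With Guibi-tang it was at 18.7, 19.5 and 17.7 against 14.5, 14.6 and 13.9 CPM and rose by 0.38 (edgeR adjusted p = 9.45e-07), which exceeded the change with Saengmaek-san by 0.33 (edgeR adjusted p = 0.0033). Unlike UGCG, SGMS1 thus passed in both. Smaller differences passed with Menthae Herba (17.0, 15.8 and 15.3 against 14.6, 14.3 and 13.6 CPM, 0.18, edgeR adjusted p = 0.0202) and Soyo-san (17.5 and 15.8 against 13.6 and 13.8 CPM, 0.28, edgeR adjusted p = 0.0203). The Menthae Herba call was lost without high-dose replicate 1 (0.14) or low-dose replicate 3 (0.15), and the Soyo-san call without high-dose replicate 1 (0.21), low-dose replicate 1 (0.27) or low-dose replicate 2 (0.29). Both calls were also lost with DESeq2 (0.18 and 0.28), with no filter on low counts (0.20 and 0.27) and when only the compared groups were fitted (0.18 and 0.28). SGMS1 overlaps SGMS1-AS1, so antisense reads may be counted with it.

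**Figure D3:**
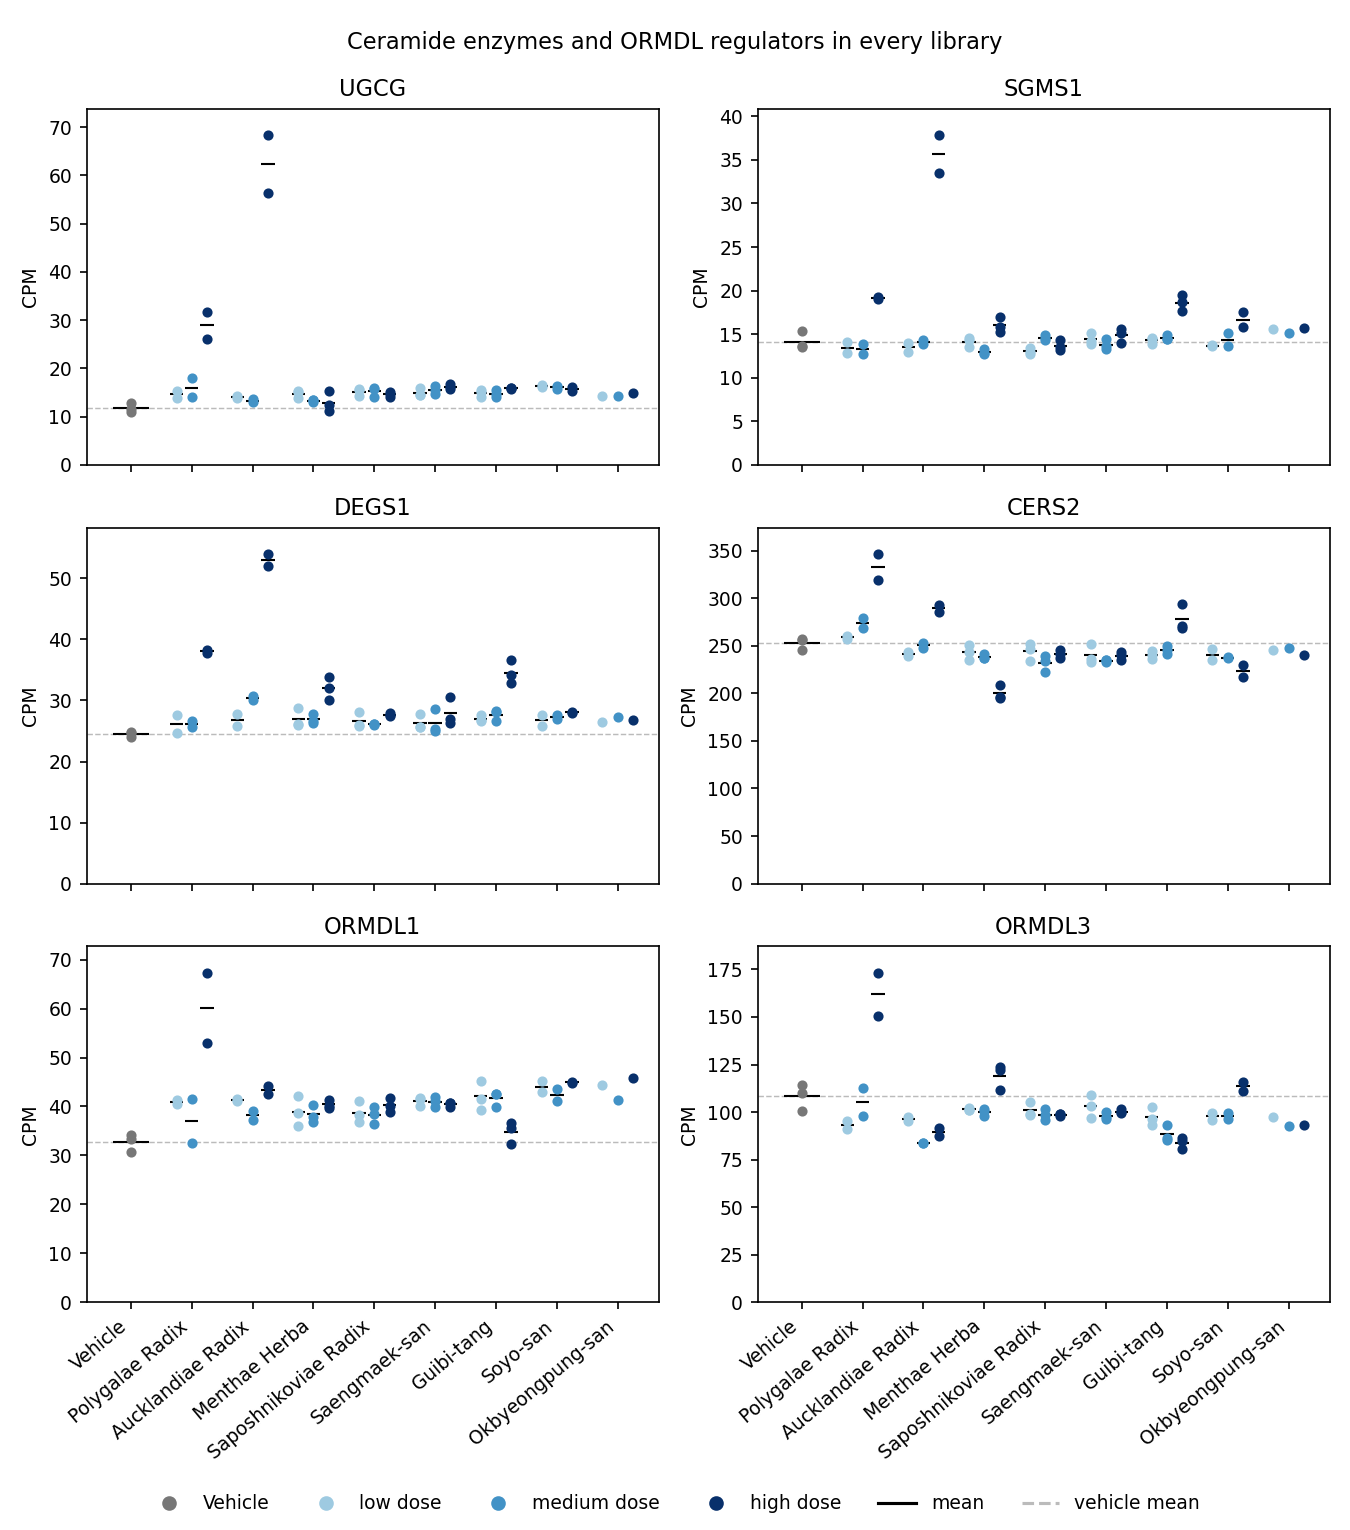
CPM of UGCG, SGMS1, DEGS1, CERS2, ORMDL1 and ORMDL3 with 1 point per library for vehicle and for each dose of each extract, on linear axes. The Aucklandiae Radix high dose stands apart for UGCG (56.5 and 68.3 CPM), SGMS1 (33.5 and 37.8 CPM) and DEGS1 (52.1 and 54.0 CPM), and the Polygalae Radix high dose for ORMDL3 (151 and 173 CPM) and ORMDL1 (53.1 and 67.3 CPM).

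Against vehicle, 9 of the 10 genes passed the test with the high dose of Polygalae Radix, where 66.9% of all genes passed, with log2 differences of -1.63 for SPTLC3, 1.29 for UGCG and 0.88 for ORMDL1. With Guibi-tang 9 of 10 also passed (51% of all genes), with SPTLC3 at -0.50 and DEGS1 at 0.49. The counts were 7 for Soyo-san (38.8% of all genes), 5 for Menthae Herba (48.2%), 5 for Saposhnikoviae Radix (40.1%) and 4 for Saengmaek-san (40.5%). When the trend with GC content was removed from each library they were 5, 6, 0 and 1, and with the pooled low doses of the other extracts in place of vehicle 3, 7, 1 and 0. In the high dose of Aucklandiae Radix the differences were -5.19 for SPTLC3, 2.41 for UGCG, 1.33 for SGMS1 and 1.11 for DEGS1, where 73.3% of all genes passed. SPTLC3 passed as higher than vehicle with the high doses of Saposhnikoviae Radix (0.24) and Saengmaek-san (0.18), but with the GC trend removed the differences were 0.07 and 0.02. The differences of -0.09 with Menthae Herba and 0.00 with Soyo-san did not pass. Leaving out Menthae Herba high-dose replicate 1 gave 3 of 10 for that extract, leaving out either high-dose library gave 4 for Soyo-san, and leaving out vehicle replicate 1 gave 7 for Saengmaek-san.

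ORMDL1, UGCG and DEGS1 were low in vehicle itself. ORMDL1 was at 34.1, 33.3 and 30.6 CPM in vehicle, while its means in the 7 low doses lay between 38.7 and 44.1 CPM. UGCG averaged 11.7 ± 1.01 CPM (SD, n = 3) in vehicle and 14.1 to 16.3 CPM in the low doses. DEGS1 averaged 24.5 ± 0.457 CPM in vehicle, against 26.1 to 27.0 CPM. By mean, vehicle also lay below the low doses for SPTLC1 (44.1 against 46.6 to 50.5 CPM) and SPTLC2 (38.6 against 40.8 to 43.1 CPM). So it did for ORMDL2 (11.0 against 11.9 to 13.7 CPM). For ORMDL3 it lay above them (108 against 93.2 to 103 CPM), and for SPTLC3, CERS2 and SGMS1 within their range. The mitochondrial share of the vehicle libraries was 15.8% to 19.1%, a range that also held the high dose of Polygalae Radix (17.5% and 17.7%), while all other libraries had 8.02% to 14.9%. Their slope of log2 CPM on transcript GC content was 0.0870 to 0.222 per 10 percentage points, a range that also held replicate 2 of the high (0.135) and medium (0.190) doses of Polygalae Radix, while all other libraries had -0.109 to 0.0283. With the GC trend removed, the log2 difference of ORMDL1 from vehicle dropped from 0.30 to 0.06 for the high doses of both Menthae Herba and Saposhnikoviae Radix, from 0.31 to 0.08 for Saengmaek-san and from 0.46 to 0.21 for Soyo-san. With the low doses of the other extracts in place of vehicle it was -0.03, -0.04, -0.02 and 0.15 for the same 4 groups.

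A further 72 genes of sphingolipid metabolism were listed by step, and 65 of them were tested. With the high dose of Polygalae Radix 27 rose and 24 fell, their median log2 difference was 0.04 against -0.01 over all genes, and 64.1% of all genes passed. All 5 genes listed under supply of serine, the substrate of the first step, fell, and serine itself was not measured. Among them PHGDH, which opens serine synthesis, was at 17.1 ± 0.835 CPM against 123 ± 0.0405 (SD, n = 2 each) and fell by 2.85 on the log2 scale (edgeR adjusted p = 6.43e-35). PSAT1, the next enzyme, fell by 1.71 and SHMT2, which interconverts serine and glycine in mitochondria, fell by 1.82. Of 17 genes that break down sphingomyelin, glycolipids or ceramide, 10 fell and 2 rose, with a median of -0.46. On the synthetic side 4 of 5 other ceramide synthases or desaturases, 3 of 3 genes of ceramide transfer and sphingomyelin synthesis, and 5 of 7 of glycosphingolipid synthesis rose, while the other 2 of those 7 fell. Of 12 genes that supply very long acyl chains 6 fell and 2 rose, with a median of -0.34. Of 13 genes listed for sphingosine 1-phosphate and ceramide 1-phosphate 9 rose and 1 fell, with a median of 0.33. SGMS2, the plasma membrane sphingomyelin synthase, rose by 1.45 (11.9 ± 1.38 against 4.30 ± 0.379 CPM, edgeR adjusted p = 8.79e-13), and S1PR2, a receptor of sphingosine 1-phosphate, rose by 1.71 (7.30 ± 1.44 against 2.22 ± 0.0759 CPM, edgeR adjusted p = 2.8e-12). At the medium dose 3 rose and 3 fell (8.41% of all genes), among them PHGDH (-0.38) and SHMT2 (-0.32) with the same sign as at the high dose, but the count was 3 without medium-dose replicate 2, 13 without medium-dose replicate 3 and 0 when only the 2 groups were fitted.

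At the high dose of Guibi-tang 28 of 65 rose and 13 fell, with a median of 0.14 against -0.00 over all genes, where 34.3% of all genes passed. Serine supply again had 4 of 5 lower and none higher (1 higher when scaled by library totals), with PHGDH at 76.6 ± 1.92 against 129 ± 3.01 CPM (SD, n = 3 each, log2 difference -0.75, edgeR adjusted p = 5.79e-18). Breakdown genes, which mostly fell with Polygalae Radix, had 9 of 17 higher and 3 lower here (10 and 1 when scaled by library totals), with a median of 0.30. ASAH1, the lysosomal acid ceramidase, rose by 0.75 (216 ± 13.2 against 129 ± 7.90 CPM, edgeR adjusted p = 1.33e-17), and it rose by 0.31 at the medium dose. B4GALNT1, a ganglioside synthase, rose by 1.20, ABCC1, a transporter that can export sphingosine 1-phosphate, rose by 0.87, and ELOVL6, a fatty acid elongase, fell by 0.91. The opposite direction of the breakdown list in Polygalae Radix and Guibi-tang was not tested as a difference, since these extracts lie in different sets and were given at different doses. The mitochondrial share of counts was 17.5% to 17.7% against 12.0% to 12.9% in the low dose for Polygalae Radix, 11.6% to 12.5% against 11.8% to 13.1% for Guibi-tang, 13.3% to 14.9% against 11.8% to 11.9% for Menthae Herba and 8.02% to 8.17% against 12.4% to 14.0% for Aucklandiae Radix. Only for Guibi-tang did the doses overlap among these 4, and the part of this share in the results was not tested.

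At the high dose of Menthae Herba 6 of 65 rose and 22 fell, with a median of -0.07 against 0.00, where 23.3% of all genes passed. Serine supply had 3 of 5 higher and none lower, while 7 of 12 genes that supply very long acyl chains fell and none rose. Of these ELOVL6 fell by 0.51 (42.6 ± 0.420 against 60.9 ± 1.24 CPM, SD, n = 3 each, edgeR adjusted p = 2.57e-12) and HACD2, a dehydratase of chain elongation, fell by 0.47. B4GALNT1 rose by 0.72 and SMPD1, the acid sphingomyelinase, fell by 0.55. Soyo-san had 3 higher and 2 lower (3.95% of all genes passed), with B4GALNT1 at 0.68 and ELOVL6 at -0.29, a count that was 2 without high-dose replicate 2 and 3 without either low-dose library. With the GC trend removed Soyo-san had 3 higher and 5 lower. Saposhnikoviae Radix had 1, ELOVL6 at -0.23, a call that was lost when its low-dose replicate 2 or its high-dose replicate 3 was left out. Saengmaek-san had none by edgeR or DESeq2 at the high dose, with 10 at an unadjusted edgeR p under 0.05. At medium doses 7 rose and 4 fell for Aucklandiae Radix (4.35% of all genes), a count of 11 that was 5 without medium-dose replicate 2 and 7 without low-dose replicate 2. Its most changed genes were ASAH2 (-0.55), a neutral ceramidase, and B4GALNT1 (0.48).

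In the high dose of Aucklandiae Radix, given as a description, the median of the 65 genes was 0.04 against -0.02 over all genes. Median log2 differences by step were lowest for serine supply (-1.22) and highest for ceramide transfer and sphingomyelin synthesis (1.59). Between them lay the small subunits of serine palmitoyltransferase with the reduction of its product (0.85), glycosphingolipid synthesis (0.50) and supply of very long acyl chains (0.30). Breakdown (0.04), other ceramide synthases and desaturases (0.02) and sphingosine 1-phosphate with ceramide 1-phosphate (-0.07) lay there too. By gene, SGMS2 differed by 2.82 and SAMD8, a relative of the sphingomyelin synthases, by 1.59, in the direction of SGMS1, while SHMT1 and SHMT2 differed by -2.39 and -1.65. GLA, the lysosomal alpha-galactosidase, differed by 1.83.

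**Figure D4:**
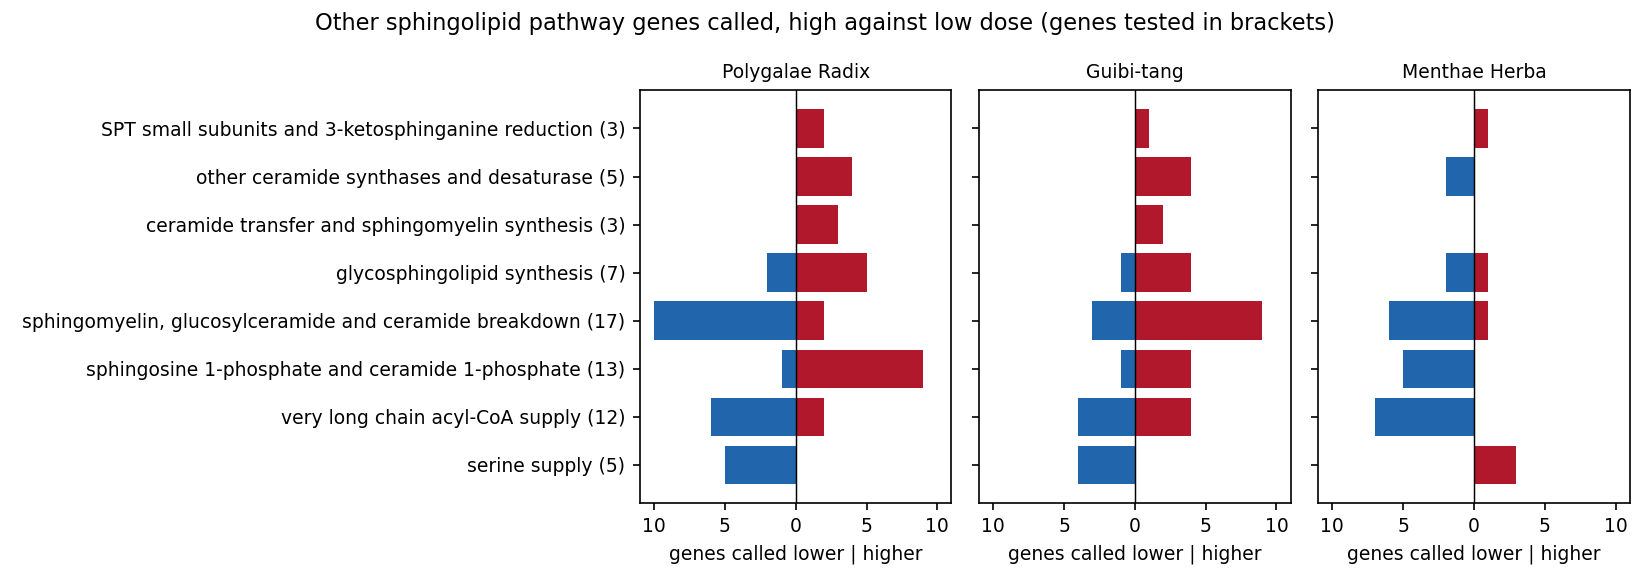
Number of other sphingolipid pathway genes called lower (blue, to the left) or higher (red, to the right) between the high and low dose of Polygalae Radix, Guibi-tang and Menthae Herba, by step, with the number tested in brackets. Serine supply is lower in 5 of 5 genes for Polygalae Radix and 4 of 5 for Guibi-tang and higher in 3 of 5 for Menthae Herba, and breakdown is lower in 10 of 17 for Polygalae Radix and higher in 9 of 17 for Guibi-tang.

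Across the 22 group means of log2 CPM, which share libraries' depth and scaling and of which 1 group sets much of the spread, Pearson's r with SPTLC3 was -0.949 for UGCG, -0.949 for SGMS1 and -0.924 for DEGS1. Without the Aucklandiae Radix high dose, over 21 groups, it was -0.758, -0.747 and -0.825. For SPTLC1 it changed sign, from -0.534 over 22 groups to 0.802 over 21, and for SPTLC2 it went from 0.0480 to 0.767. Of these 21 groups the Polygalae Radix high dose had the lowest means of SPTLC3 (19.6 CPM), SPTLC1 (34.5 CPM) and SPTLC2 (30.6 CPM). It also had the highest mean of UGCG (28.9 CPM). How far this 1 group sets the correlations over 21 groups was not tested. Among 10699 genes with a mean of at least 5 CPM the 4 patterns most like SPTLC3 over 22 groups were those of GYG2 (0.995), IVD (0.994), MYO5C (0.993) and RBMX (0.993). GYG2, a liver glycogenin, averaged 4.11 CPM in the Aucklandiae Radix high dose, 19.6 CPM in that of Polygalae Radix, 30.7 CPM in that of Guibi-tang and 42.2 CPM in vehicle. Over 21 groups they were SLC31A1 (0.992), MYO5C (0.992), AIG1 (0.987), ABCB4 (0.984) and TF (0.983), and TF is one of the hepatocyte identity genes. MYO5C, a myosin motor, was named in both.

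Okbyeongpung-san had 1 library per dose and so no test. SPTLC3 was at 64.5, 63.8 and 68.4 CPM at the high, medium and low dose, with exact 95% Poisson intervals, which cover counting error only, of 61.5 to 67.7, 60.6 to 67.2 and 65.0 to 71.9. These overlap each other and lie within the range of the low doses of the other extracts. The largest high-minus-low differences of log2 CPM among the 10 genes were -0.18 for ORMDL2 and 0.16 for SPTLC2.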

How the data were processed

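RNA of HepG2 cells was sequenced as 100 bp pairs from a directional library kit, per the labels' protocols. Per the submitters' processing notes, the tools were FastQC 0.11.9, Trim Galore 0.6.5, STAR 2.7.3a and RSEM 1.3.3. The genome is human GRCh38, per the same notes. Which annotation release and which strand setting RSEM used is not given in the sources used here. The deposited values are RSEM expected counts per gene, not normalized by the authors; 9.97% were not whole, and all were rounded. GENCODE 29 gave symbols for 57055 of 60675 IDs, coordinates and exon lengths.

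The 10 genes, the pathway and marker lists and the tests were chosen with earlier results of these data known. Groups came from the labels. One edgeR 4.0.16 quasi-likelihood model (R 4.3.3, limma 3.58.1; TMM scaling, filterByExpr with a minimum count of 10, 22 groups, 57 libraries, 35 residual degrees of freedom, 16982 genes) was fitted, with Benjamini-Hochberg adjustment over all genes per contrast and a threshold of 0.05. The script was tested on simulated data. Okbyeongpung-san, with 1 library per dose, was left out of the model. All 10 genes are named, as are, per contrast, at most 5 other pathway genes that passed the test, had a mean of at least 5 CPM and had the largest log2 differences. CPM are TMM-scaled, except those of the identity and marker lists, which are scaled by library totals. A prior count of 2 was used for log2 CPM. Likeness to SPTLC3 was Pearson's r of group means of log2 CPM. One gene that this rule named is not reported here. No pair of replicates agreed within sampling noise (lowest chi-square per gene 1.75).

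Alternatives were DESeq2 1.42.0, other scalings and filters, a fit of the compared groups only, a replicate block, removal of the trend with GC content, leaving out each library and another reference than vehicle. For the counts of other pathway genes these alternatives were chosen after seeing the data.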

Additional observations from a re-analysis of the deposited data

Results flagged for a closer look

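In all, 9 differences in dose response between the 2 extracts of a set passed the interaction test of the edgeR quasi-likelihood model. Between Menthae Herba and Saposhnikoviae Radix, both at 500 against 20 ug/mL, 3 of the 10 genes differed, where 10.6% of all genes did: SPTLC3 by -0.34 (adjusted p = 0.000114), ORMDL3 by 0.26 (adjusted p = 0.00886) and CERS2 by -0.26 (adjusted p = 0.000331). Between Guibi-tang and Saengmaek-san at the same doses 4 differed, where 19.6% of all genes did. They were SPTLC3 by -0.67 (adjusted p = 2.3e-11), CERS2 by 0.21 (adjusted p = 0.00256), DEGS1 by 0.27 (adjusted p = 0.00931) and SGMS1 by 0.33 (adjusted p = 0.0033). CERS2 thus had opposite signs in these 2 pairs. Between the medium-against-low changes of Aucklandiae Radix and Polygalae Radix, at 56 against 11.2 and 50 against 10 ug/mL, SPTLC1 differed by 0.30 (adjusted p = 0.016) and ORMDL3 by -0.38 (adjusted p = 0.00372), where 7.73% of all genes did. The first 7 held in all 21 alternatives run on each. Of 17 alternatives run on each of the last 2, SPTLC1 lost its call in 6 and ORMDL3 in 2.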

How the results depend on the processing

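Between high and low doses no call of the 10 genes with Polygalae Radix, and no call of SPTLC3 with Guibi-tang or Menthae Herba, was lost in any alternative run. Leaving out 1 library moved the SPTLC3 difference to between -1.73 and -1.50 for Polygalae Radix, -0.67 and -0.59 for Guibi-tang, -0.37 and -0.30 for Menthae Herba, -0.22 and -0.18 for the Guibi-tang medium dose, -0.21 and -0.13 for the Aucklandiae Radix medium dose, -0.17 and -0.07 for the Polygalae Radix medium dose and -0.16 and -0.11 for the Soyo-san high dose. Scaling by library totals took the median of all genes between high and low dose from -0.01 to 0.15 (Polygalae Radix), from -0.02 to 0.12 (Aucklandiae Radix), from -0.00 to 0.08 (Guibi-tang) and from 0.00 to 0.04 (Menthae Herba), and against vehicle to at most 0.28 (Polygalae Radix, from 0).

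The count of the 10 genes called between medium and low dose of Polygalae Radix (1 as reported) was 2 with library totals, 2 with a mean of at least 1 CPM, 2 with DESeq2, 0 with the GC trend removed, 0 with the compared groups only and 0 to 3 without single libraries. With the GC trend removed it was 2 for Aucklandiae Radix medium, where leaving out a library gave 0, and 2 for Guibi-tang medium. For Soyo-san high (2 as reported) it was 1 with library totals, no filter, the compared groups only or DESeq2, and 0 to 1 without single libraries. SPTLC3 passed with the GC trend removed for Aucklandiae Radix medium (-0.20) and Soyo-san high (-0.15). The count of other pathway genes called was 0 for Polygalae Radix medium with the compared groups only and 3 to 13 without single libraries, 5 to 10 without single libraries for Aucklandiae Radix medium, 3 (GC) and 2 (compared groups) for Saposhnikoviae Radix high with 0 to 1 without single libraries, 7 (GC) and 5 (compared groups) for Guibi-tang medium, and 8 (GC) with 2 to 4 without single libraries for Soyo-san high.

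For high doses against vehicle, the count of the 10 genes called was 9 with library totals, 3 with the compared groups only and 3 to 5 without single libraries for Menthae Herba, 0 (GC) and 1 (pooled low doses) for Saposhnikoviae Radix, 7 (library totals), 1 (GC), 0 (pooled low doses) and 3 to 7 without single libraries for Saengmaek-san, 5 (compared groups) for Guibi-tang, and 3 (no filter), 4 (compared groups), 3 (pooled low doses) and 4 to 7 without single libraries for Soyo-san. Signs changed as follows. Library totals gave 0.14 for SPTLC1 with Menthae Herba. The GC correction gave -0.11 for SPTLC2 with Menthae Herba, -0.013 for SPTLC1 and -0.15 for ORMDL1 with Guibi-tang, and -0.016 for SPTLC1 and -0.17 for SPTLC3 with Soyo-san. The pooled low doses gave -0.032 for ORMDL1 and -0.20 for UGCG with Menthae Herba, -0.039 for ORMDL1, 0.0064 for ORMDL3 and -0.025 for UGCG with Saposhnikoviae Radix, -0.017 for ORMDL1 with Saengmaek-san, -0.23 for ORMDL1 with Guibi-tang and -0.012 for SPTLC1 with Soyo-san. In the untested high-against-low values of Aucklandiae Radix, ORMDL1 was -0.041 with the GC trend removed and ORMDL3 was 0.032 with library totals. The cause of these changes was not tested.

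Of 36 same-numbered pairs of libraries 1 correlated above 0.1 (median 0.019), and 23 correlated best with their own number. In extracts with 2 libraries per dose both pairs of a comparison carry the same correlation, so these values are not all independent. Whether replicate numbers pair the libraries was not tested. The replicate block gave -1.61 over all libraries and -1.60 within sets for SPTLC3 with Polygalae Radix, and of the 10 genes' calls only SPTLC1 with Soyo-san high against vehicle was lost (0.13). By rank correlation the 5 genes most like SPTLC3 were ALDH6A1, SLC31A1, NNT, GLUD1 and VIL1 over 22 groups, and FGB took the place of VIL1 over 21. Depth limits ORMDL2 most, whose lowest library held 212 counts apart from the 35 of SPTLC3, and 2 libraries per dose limit Polygalae Radix, Aucklandiae Radix and Soyo-san.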
